A study of Homo sapiens with 6 samples.

Results

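The nuclear-encoded genes of the respiratory chain were followed across 6 RNA-seq libraries of MRC5, a fibroblast line from human embryonic lung that had been immortalised with hTERT from a lentivirus. Members were chosen by symbol alone: NDUFA, NDUFB, NDUFC, NDUFS or NDUFV followed by a number, any symbol starting with UQCR, ATP5 or COX4 to COX8, and SDHA to SDHD. Of 97 rows with such a start, 12 were left out as pseudogenes, readthrough or antisense names, assembly factors, or, for NDUFA4L2, a symbol that goes on after its number. The remaining 85 genes, of 25368 symbols in each table, were 36 of complex I, 4 of complex II, 9 of complex III, 18 of complex IV, 16 of complex V and 2, ATP5S and ATP5SL, that belong to no complex. NDUFA4, named for complex I, was counted in complex IV, where the protein is found.

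The respiratory chain sits in the inner membrane of mitochondria. Complex I takes electrons from NADH and complex II takes them from succinate, both pass them to ubiquinone, complex III carries them on to cytochrome c, and complex IV hands them to oxygen. Complexes I, III and IV pump protons, and complex V, the ATP synthase, uses the proton gradient to make ATP. Complex II also works in the citric acid cycle, and its subunits are all nuclear-encoded, while each of the other complexes mixes nuclear subunits with a few from the mitochondrial genome. The mitochondrially encoded subunits were not analysed here.

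The first table held MRC5 cells infected for 2 h with adenovirus carrying an empty vector (control), FLAG-tagged wild-type JUN (JUN WT) or a FLAG-tagged JUN whose JNK phosphorylation sites were changed to alanine (JUN AA), and then cultured for 3 days. The second held untreated MRC5, induced cancer-associated fibroblasts (iCAFs), which are MRC5 kept for 7 days in conditional medium (CM) of the breast cancer line MDA-MB-231, and iCAFs given the JNK inhibitor JNK-IN-8 at 1 µM for 48 h (iCAFs+JNKi). For iCAFs the labels name DMSO as vehicle. JUN and JNK are members of the stress signalling route that ends at AP-1, and the design asks what phosphorylated JUN does to fibroblast transcription. Each condition had 1 library, so no value has an error, no difference has a replicate check and no test was made. The libraries are of bulk RNA, in which fewer cells of a type and less RNA per cell cannot be told apart.

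Values are FPKM, fragments per kilobase of exon per 1000000 mapped fragments, and the number of reads behind them is unknown. The tables were normalised separately and were compared only within themselves. A difference is that of log2(FPKM + 1), on which changes at low FPKM look smaller than they are. Genes that averaged 1 FPKM or more over the 3 libraries of a table entered the comparisons, which left 10311 genes in the first table and 11780 in the second. Of the 85 members, 79 and 78 passed. The overexpressed gene itself, JUN, had values of 25.5 (control), 4543 (JUN WT) and 291 FPKM (JUN AA), and of 57.1 (MRC5), 55.3 (iCAFs) and 21.1 FPKM (iCAFs+JNKi). JUN WT and JUN AA thus differed both in the mutated sites and in the level of JUN mRNA, and these cannot be told apart. All 7 fibroblast markers were at 1 FPKM or more in each library, and the 3 leukocyte and endothelial markers summed to at most 0.0251 FPKM. Of 5 epithelial markers, 2 or 3 reached 1 FPKM, with sums of 19.7 to 56.2 FPKM. The fibroblast markers moved with the conditions, at summed values of 6148 (control), 5496 (JUN WT), 4386 (JUN AA), 5556 (MRC5), 3971 (iCAFs) and 6096 FPKM (iCAFs+JNKi), and their part in the results was not tested. The FPKM sum of a library was 494603 (control), 498514 (JUN WT) and 613184 (JUN AA), and 399532 (MRC5), 393521 (iCAFs) and 359944 (iCAFs+JNKi). With every library rescaled to an equal sum, the median of all genes moved from -0.02 to -0.29 in JUN AA against control, from 0.18 to 0.47 in JUN WT against JUN AA and from -0.10 to 0.01 in iCAFs+JNKi against iCAFs. Changes of the members are therefore given beside those of all genes, with the rescaled value where the direction or the count depends on it.

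In JUN AA most members were higher than in the control, at 70 of 79, against 48.6% of all genes. After rescaling 50 were higher, against 29.8%. Complex II was the exception. In JUN WT complex II was instead higher, and the medians of the other complexes lay between -0.13 and 0.30. In iCAFs the members differed little from MRC5. In iCAFs+JNKi only 3 of 78 were higher than in iCAFs, against 37.4% of all genes, and the median difference was -0.33. After rescaling 15 were higher, against 51.8%.

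Transcripts of the chain were abundant in every library. The 85 members together took 3.11% of the FPKM sum (control), 2.92% (JUN WT) and 4.07% (JUN AA). In the JNKi table they took 1.84% (MRC5), 1.80% (iCAFs) and 1.52% (iCAFs+JNKi). Complex I, with the most genes, had the largest share in all 6 libraries, from 0.527% in iCAFs+JNKi to 1.67% in JUN AA. Complex II had the smallest share of the complexes, and it ran against the others in the first table, with 0.0244% (control), 0.0390% (JUN WT) and 0.0170% (JUN AA).

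**Figure D1:**
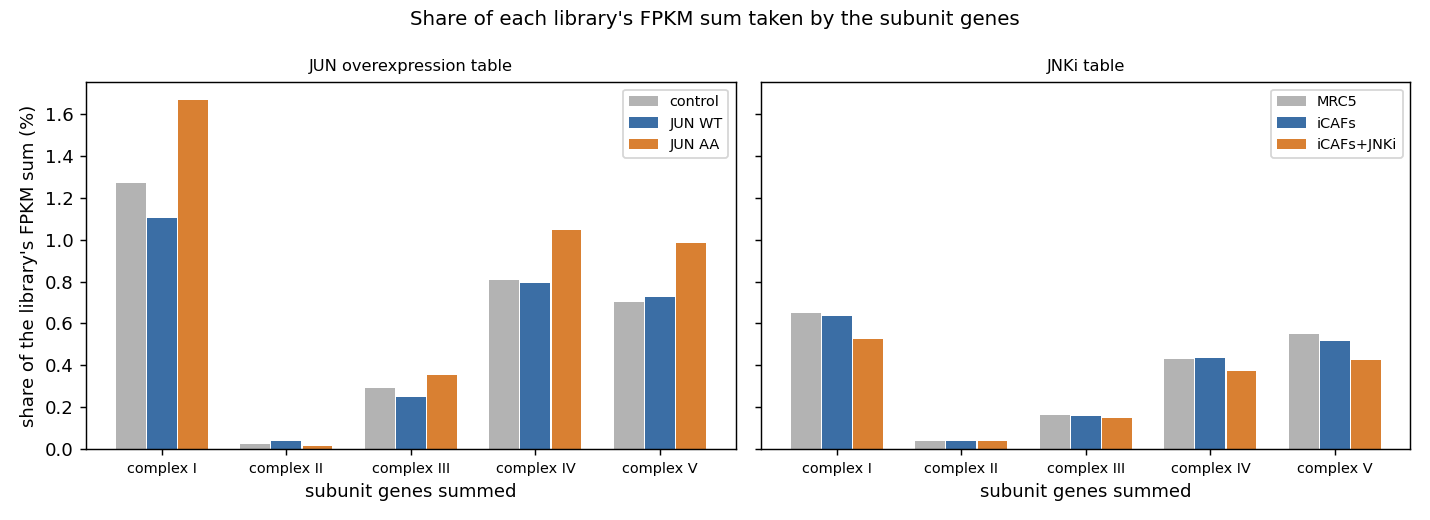
Bars give the summed FPKM of the subunit genes of each complex as a percent of the library's whole FPKM sum, for the 3 libraries of each table. Complexes I, III, IV and V stand highest in JUN AA, complex II stands highest in JUN WT, and in the JNKi table complexes I, III, IV and V stand lowest in iCAFs+JNKi.

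The most abundant subunit genes differed between the tables. In the JUN overexpression table NDUFA13, an accessory subunit of complex I, had the highest mean of its complex, with 1068 (control), 667 (JUN WT) and 1385 FPKM (JUN AA). SDHB led complex II, UQCRH complex III, COX8A complex IV and ATP5E complex V, at means of 43.4, 481, 713 and 804 FPKM. In the JNKi table the leading genes were NDUFS5, SDHA, UQCRH, COX7C and ATP5B, at means of 269, 45.6, 180, 239 and 329 FPKM. Only UQCRH, the hinge protein of complex III, led its complex in both. FPKM is scaled by length, but 32 members share exon bases with a coding gene and 48 have pseudogenes of their name. The order of levels between genes of a table is therefore approximate.

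Among subunits with tissue isoforms, the common form carried the signal. COX4I1 ranged from 206 to 688 FPKM over the 6 libraries, while COX4I2, described in lung, was listed at 0 in all of them. COX6A1 ranged from 135 to 673 FPKM, whereas COX6A2, the form of heart and skeletal muscle, was listed at 0 throughout, and so was COX8C. COX6B2, known from testis, and COX7B2 stayed at or below 0.304 FPKM. COX7A1, the other muscle form, was measured in every library, at 88.2 (control), 62.1 (JUN WT), 195 (JUN AA), 32.2 (MRC5), 24.9 (iCAFs) and 22.6 FPKM (iCAFs+JNKi). It was below COX7A2, the widely expressed form, in all 6 libraries. ATP5G1, ATP5G2 and ATP5G3, which code for the same mature subunit c of the ATP synthase, were at 133, 214 and 151 FPKM in the control. ATP5L2 was at or near 0, and UQCRHL, a close copy of UQCRH, was at 3.27 to 6.24 FPKM in the first table and failed the filter in the second, with reads that the counting could have divided between both copies.

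In JUN AA, the members were higher than in the control by a median of 0.50, while the median of all genes was -0.02. Of 79 members, 70 were higher, against 48.6% of all genes. After rescaling 50 of 79 were still higher, against 29.8% of all genes. The members' median was then 0.19, which was 0.48 above that of all genes. At least 1.5-fold higher were 32 members, against 13.6% of all genes, and 1 member, ATP5SL, was at least 1.5-fold lower, against 12.0%. After rescaling 23 were higher and 2 lower by that much, against 8.34% and 28.3% of all genes. By 2-fold or more 22 members were higher, against 5.29% of all genes, and 0 lower, against 3.77%. After rescaling the 22 became 8, against 3.28% of all genes. Complex V had the highest median of the complexes, 0.80, with 15 of 15 genes higher, or 13 of 15 after rescaling. Complex IV had a median of 0.55 with 12 of 13 higher, complex III 0.51 with 9 of 9 and complex I 0.47 with 33 of 36, and after rescaling 9, 6 and 22 of these genes were higher. Complex II had a median of -0.19 with 0 of 4 genes higher under either scale.

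The largest differences in JUN AA were in NDUFB3, COX7B and NDUFA12. NDUFB3, in the membrane arm of complex I on chromosome 2 of GRCh37 from 201936156 to 201950473, was at 46.7 (control), 52.8 (JUN WT) and 170 FPKM (JUN AA), a log2 difference of 1.84 in JUN AA against control. COX7B, an accessory subunit of complex IV on chromosome X from 77154937 to 77162873, was at 232 (control), 212 (JUN WT) and 712 FPKM (JUN AA), a difference of 1.61. NDUFB3 shares exon bases with a coding gene on the other strand. In both genes the control and JUN WT lay close together and JUN AA stood apart. NDUFA12, another accessory subunit of complex I, was at 38.7 (control), 75.4 (JUN WT) and 115 FPKM (JUN AA), so that JUN WT lay between the others. ATP5C1, the rotating central stalk of the ATP synthase, had 98.2, 123 and 281 FPKM in that order. These 4 stayed more than 2-fold higher in JUN AA after rescaling, at differences of 1.54, 1.31, 1.25 and 1.20.

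Further members at least 2-fold higher in JUN AA were NDUFS5, NDUFA1, NDUFA6, NDUFS4 and NDUFA5 of complex I, UQCRB and UQCRH of complex III, COX7C, COX6C, NDUFA4, COX7A1 and COX7A2 of complex IV, and ATP5J2, ATP5L, ATP5O, ATP5H, ATP5G1 and ATP5F1 of complex V. Of these 18, NDUFS5, UQCRB, COX7C and COX6C stayed 2-fold higher after rescaling, and the remaining 14 had rescaled differences of 0.71 to 0.99. NDUFS5 reached the highest FPKM of any member in JUN AA, with values of 640 (control), 447 (JUN WT) and 1639 FPKM (JUN AA). COX7C was at 440 (control), 462 (JUN WT) and 1202 FPKM (JUN AA).

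A list of 14 central subunits, most of which hold redox centres or catalytic sites, had a median of 0.13 in JUN AA against control. Of these, 11 were higher, against 48.6% of all genes. The remaining 65 members had 0.53, with 59 higher, and after rescaling the medians were -0.18 and 0.22. Of the reported subunits of the list, only COX4I1 and COX5B have canonical transcripts under 1000 bases. Members over 1000 bases had a median of 0.20 and shorter ones 0.53, and the part of length in this contrast was not tested. NDUFS1, with iron-sulfur clusters of the NADH module, was at 9.87 FPKM in the control and 11.3 FPKM in JUN AA. NDUFV1, which binds NADH, was at 111 and 137 FPKM. In complex III, UQCRC1 was at 335 and 337 FPKM and the Rieske iron-sulfur protein UQCRFS1 at 59.6 and 68.3 FPKM. UQCRC2 was at 23.4 and 40.7 FPKM. COX4I1 was at 602 and 688 FPKM, COX5A at 92.3 and 136 FPKM and COX5B at 473 and 469 FPKM. ATP5A1 and the catalytic subunit ATP5B were at 114 and 120 FPKM and at 421 and 433 FPKM. Under rescaling the direction of NDUFS1, NDUFV1, UQCRC1, UQCRFS1, COX4I1, ATP5A1 and ATP5B turned to lower in JUN AA, all of them genes with differences of at most 0.30.

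In JUN WT the members were higher than in the control by a median of 0.06 and all genes by 0.15, so that centred on the median gene the members' median became -0.09. Of 79 members 41 were higher, against 60.9% of all genes. There were 15 members at least 1.5-fold higher, against 22.1% of all genes, and 6 at least 1.5-fold lower, against 10.0%. Centred on the median gene these counts were 10 higher and 13 lower, against 15.3% and 14.8% of all genes, and with length and GC trends removed 6 higher and 11 lower, against 12.1% and 11.3%, so that the balance of the calls turned. By 2-fold 5 members were higher, against 6.92% of all genes, and 0 lower, against 3.39%. The 14 central subunits had a median of 0.35, with 10 higher, and the remaining 65 members -0.04, with 31 higher. This order was opposite to that in JUN AA. Members over 1000 bases had a median of 0.31 and shorter ones -0.04, and the part of length was again not tested. By complex, the medians were 0.09 for complex I, -0.13 for complex III, -0.13 for complex IV and 0.30 for complex V, and only that of complex I changed its sign, to -0.06, when changes were centred.

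Complex II stood apart in JUN WT, with a median of 0.72 and 4 of 4 genes higher, also after rescaling and after centring, while after the removal of length and GC trends 3 of 4 were higher and the median was 0.43. SDHB, the iron-sulfur subunit on chromosome 1 from 17345159 to 17380527, was at 32.1 (control), 70.4 (JUN WT) and 27.9 FPKM (JUN AA). SDHD, a membrane anchor on chromosome 11 from 111957548 to 111990739, was at 13.3 (control), 30.7 (JUN WT) and 12.6 FPKM (JUN AA). Both were slightly lower in JUN AA than in the control and more than 2-fold higher in JUN WT. SDHA, the flavoprotein that oxidises succinate, was at 36.0, 43.6 and 31.4 FPKM, and SDHC, the other anchor, at 39.5, 49.9 and 32.4 FPKM. All 4 genes were thus highest in JUN WT and lowest in JUN AA. Of all genes 60.9% were higher in JUN WT than in the control. JUN WT was the highest library for 48.2% of all genes, or 53.8% after rescaling. Higher in JUN WT than in JUN AA were 62.5% of all genes, or 76.4% after rescaling. In JUN AA 48.6% of all genes were higher than in the control, or 29.8% after rescaling. The share of all genes lowest in JUN AA was not computed, so how common this order is among all genes is not known. Exon bases of SDHD are shared with an overlapping annotated gene on its own strand, and 6 pseudogenes carry its name.

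The other members more than 2-fold higher in JUN WT were NDUFV2, UQCRC2 and NDUFA9. NDUFV2, an iron-sulfur subunit of the NADH module of complex I, was at 42.8 (control), 111 (JUN WT) and 76.7 FPKM (JUN AA). UQCRC2, a core subunit of complex III on chromosome 16 from 21964609 to 21994981, was at 23.4 (control), 59.6 (JUN WT) and 40.7 FPKM (JUN AA). NDUFA9, an accessory subunit of complex I, was at 22.3 (control), 55.0 (JUN WT) and 19.4 FPKM (JUN AA). The control was the lowest library for NDUFV2 and UQCRC2, whereas for NDUFA9 it was JUN AA. Subunits of 1 complex also went opposite ways. UQCRC1, the partner of UQCRC2 on chromosome 3 from 48636435 to 48648409, was at 335 (control), 199 (JUN WT) and 337 FPKM (JUN AA), a difference of -0.75 in JUN WT against 1.31 for UQCRC2. NDUFB7, an accessory subunit of complex I, was at 607 (control), 356 (JUN WT) and 1135 FPKM (JUN AA), and NDUFA5, with low values, at 5.42, 3.01 and 12.6 FPKM.

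**Figure D2:**
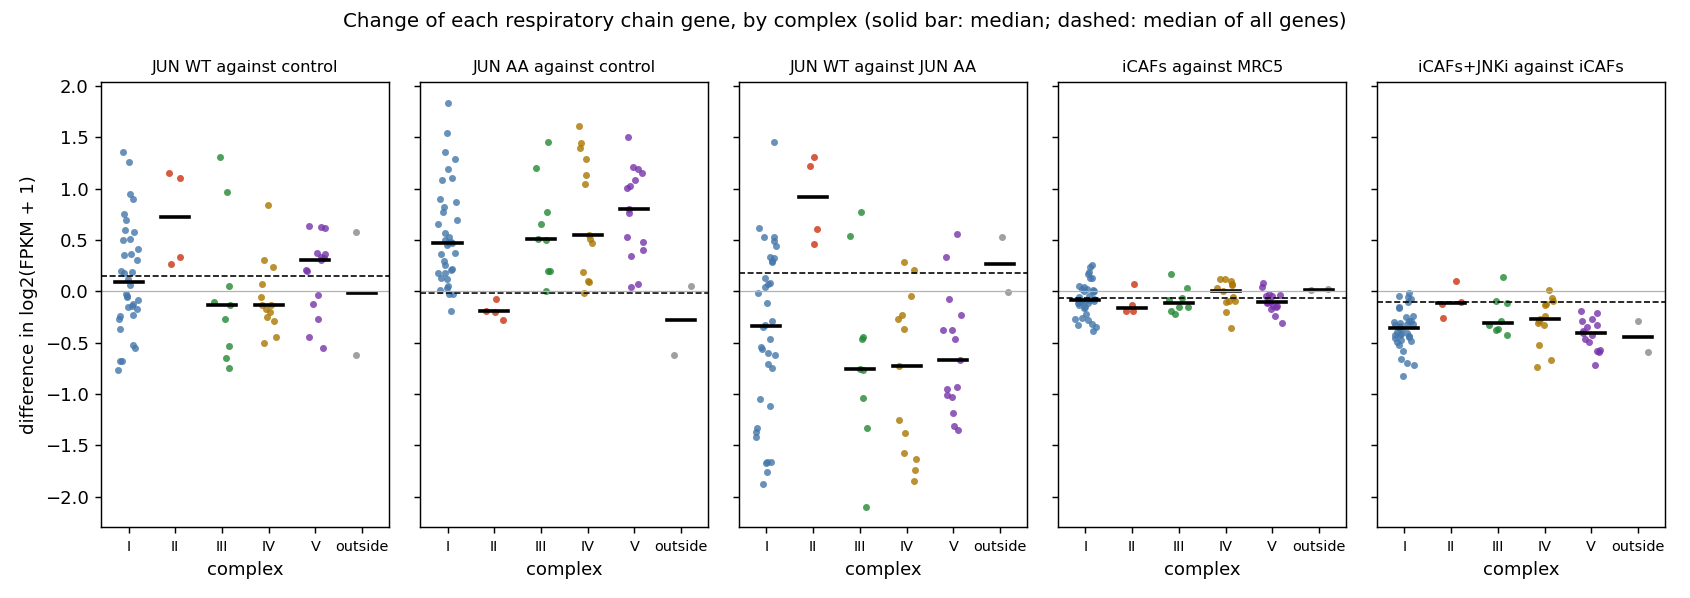
Each point is 1 gene that passed the filter, placed by its difference in log2(FPKM + 1) in 5 comparisons and grouped by complex. Solid bars are medians of the complexes and dashed lines the median of all genes. In JUN AA against control complex V has the highest median, 0.80, and complex II lies below 0, in JUN WT against control complex II has the highest, 0.72, and in iCAFs+JNKi against iCAFs the medians of all complexes are below 0, of which that of complex II turns to 0.01 after rescaling.

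JUN WT and JUN AA were also set directly against each other. These differences use the same libraries as those above and are no further evidence. The members were lower in JUN WT than in JUN AA by a median of -0.44, while all genes were higher by 0.18, and after rescaling these medians were -0.15 and 0.47. Of 79 members 25 were higher in JUN WT, against 62.5% of all genes, and after rescaling 34 of 79, against 76.4%. At least 1.5-fold lower in JUN WT were 34 members, against 12.4% of all genes, and at least 1.5-fold higher were 6, against 21.8%. After rescaling 26 were lower and 19 higher by that much, against 8.15% and 41.7% of all genes. Complex III, complex IV, complex V and complex I had medians of -0.76, -0.72, -0.67 and -0.33, and complex II had 0.92. The largest differences were in UQCRB, an accessory subunit of complex III, at 20.5 (JUN WT) and 91.2 FPKM (JUN AA), in NDUFS5 and in COX6C, an accessory subunit of complex IV, at 67.3 and 244 FPKM. For COX6C 17 pseudogenes carry its name, the most of any member. In the opposite direction NDUFA9, SDHB and SDHD were higher in JUN WT by 1.46, 1.31 and 1.22.

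JUN AA was the highest of the 3 libraries for 52 of 79 members, against 25.2% of all genes, and for 40 of 79, against 13.6%, after rescaling. JUN WT was the highest for 25 members, against 48.2% of all genes, and the control for 2, against 26.6%. After rescaling JUN WT was the highest for 30 and the control for 9, against 53.8% and 32.6%. The 2 highest in the control as deposited were COX5B and ATP5SL, an assembly factor of complex I now named DMAC2, which was at 48.8 (control), 31.4 (JUN WT) and 31.5 FPKM (JUN AA). Among the members highest in JUN AA were 22 of 36 in complex I, 7 of 9 in complex III and 10 of 13 in complex IV. In complex V they were 13 of 15 and in complex II 0 of 4. After rescaling, complexes I, III, IV, V and II had 17, 5, 7, 11 and 0 such members.

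**Figure D3:**
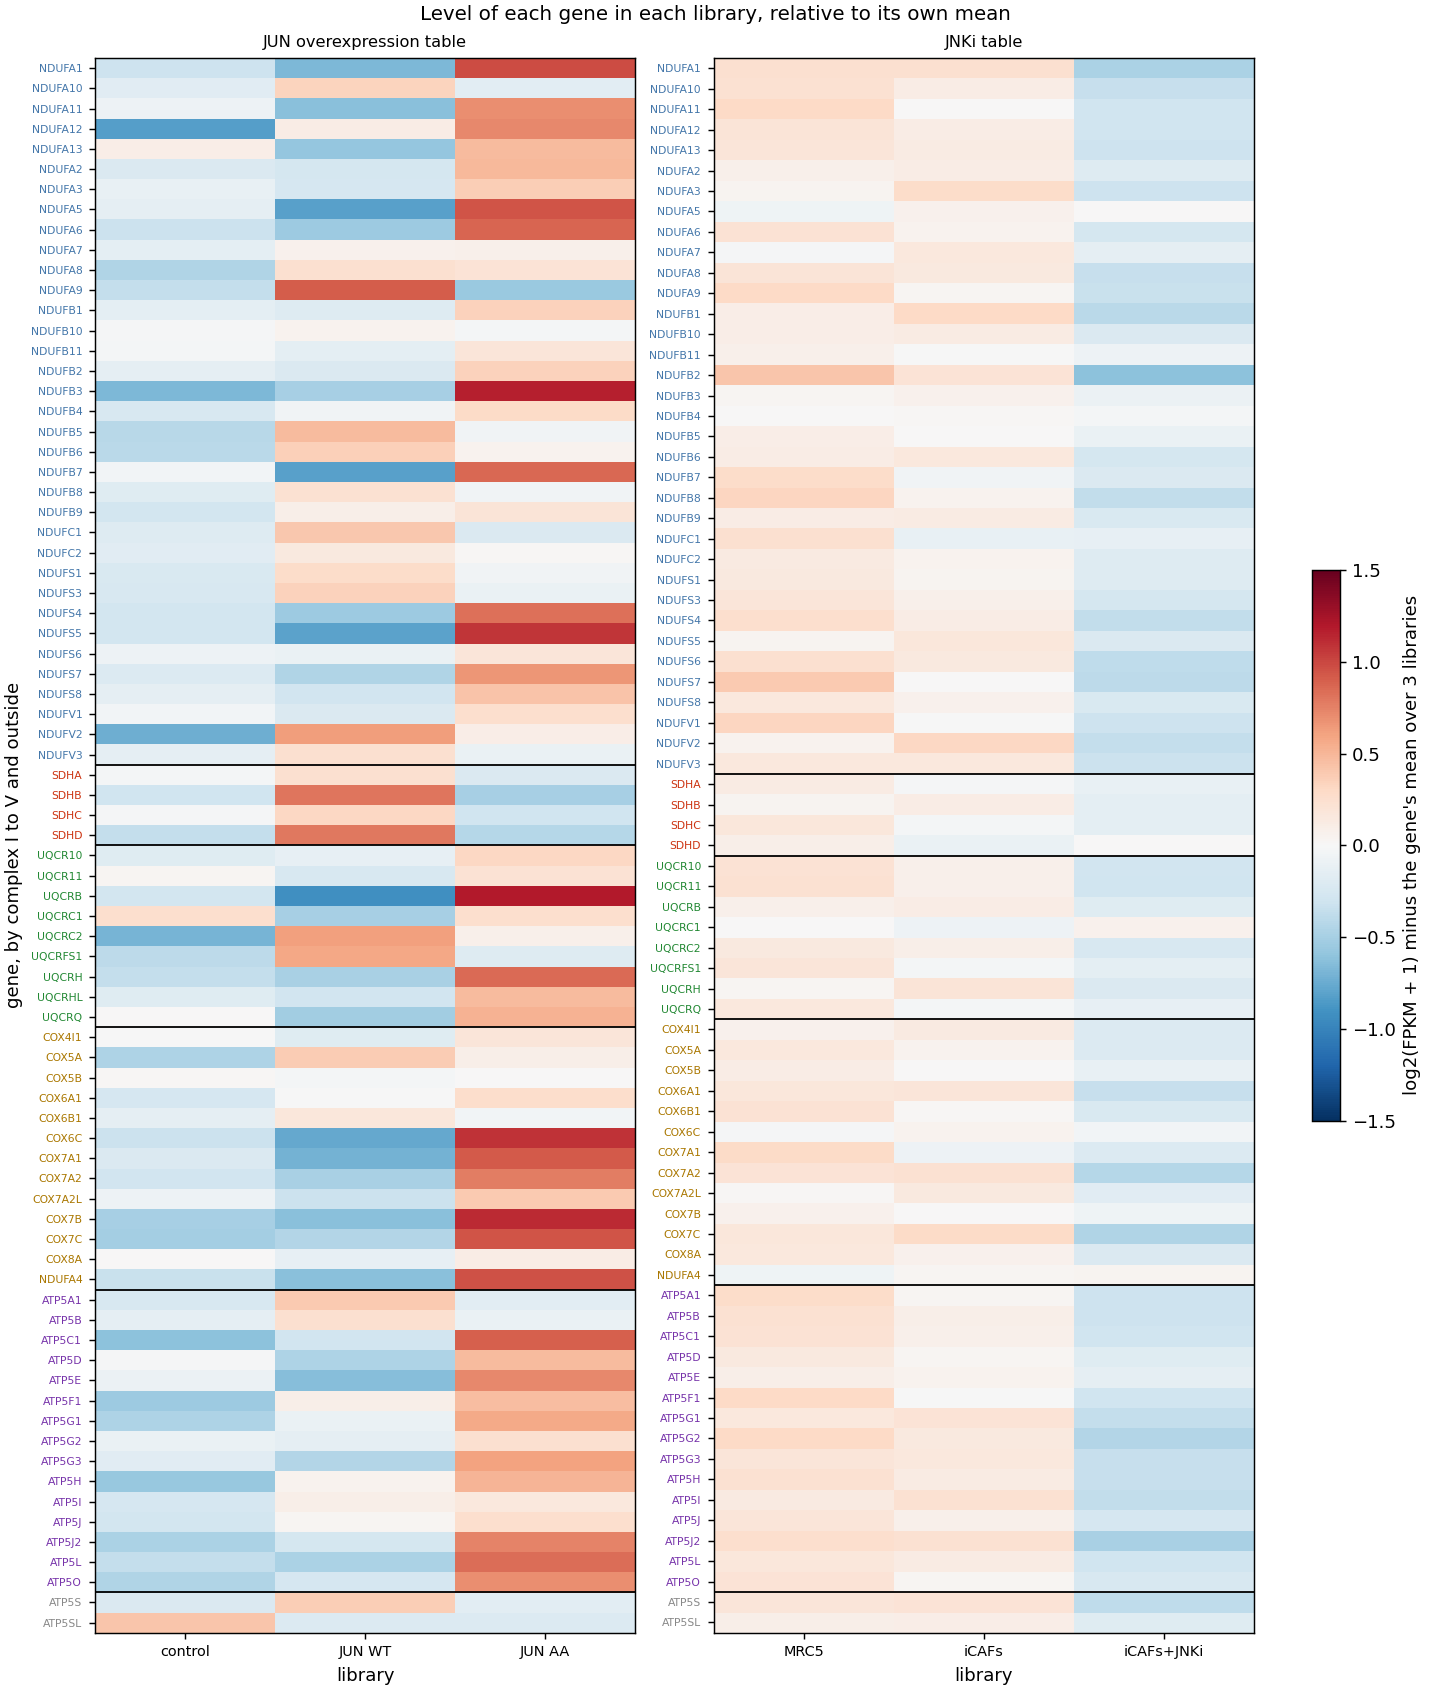
Each row is a gene and each column a library. Colour gives log2(FPKM + 1) minus the gene's mean over the 3 libraries of its table, red above and blue below that mean. The JUN AA column is the reddest for 52 of the 78 genes drawn as deposited (40 after rescaling), the 4 SDH genes are reddest in JUN WT, and the iCAFs+JNKi column is the bluest for 73 of the 77 genes drawn (60 after rescaling).

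iCAFs differed little from MRC5. The members' median was -0.08, that of all genes -0.06, and 26 of 78 members were higher, against 40.6% of all genes. Past 1.5-fold there were 0 members in either direction, while of all genes 4.66% were higher and 6.30% lower by that much. The differences of members ran from -0.38 to 0.26. NDUFS7, an iron-sulfur core subunit next to the ubiquinone site, was at 52.8 FPKM in MRC5 and 40.3 FPKM in iCAFs, COX7A1 at 32.2 and 24.9 FPKM and NDUFC1 at 33.4 and 26.0 FPKM. At the other end NDUFV2 was at 87.1 FPKM in MRC5 and 105 FPKM in iCAFs, NDUFA3 at 62.9 and 74.4 FPKM and NDUFB1 at 60.2 and 68.9 FPKM. MRC5 was the highest of the 3 libraries for 51 of 78 members, against 49.2% of all genes.

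In iCAFs+JNKi the members were lower than in iCAFs by a median of -0.33, where all genes had -0.10. Of 78 members 3 were higher, against 37.4% of all genes, and after rescaling 15 of 78 were higher, against 51.8%. At least 1.5-fold lower were 9 members, against 7.49% of all genes, and 0 were at least 1.5-fold higher, against 5.17%. The 9 lower members became 5 after rescaling, against 6.10% of all genes, 5 after centring, against 4.94%, and 0 with length and GC trends removed, against 4.43%. The iCAFs+JNKi library was the lowest of the 3 for 74 of 78 members, against 53.3% of all genes, and for 61 of 78, against 38.4%, after rescaling. Complex V had a median of -0.40 with 0 of 15 genes higher, also after rescaling, and complex I had -0.36 with 0 of 36 higher, or 5 of 36 after rescaling. Complex III had -0.31, complex IV -0.27 and complex II -0.11, the last of which became 0.01 after rescaling.

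The 3 largest differences were in NDUFB2, COX7C and NDUFA1. NDUFB2, in the membrane arm of complex I on chromosome 7 from 140390577 to 140422590, was at 136 (MRC5), 117 (iCAFs) and 65.9 FPKM (iCAFs+JNKi). COX7C, on chromosome 5 from 85913745 to 85916779, was at 262 (MRC5), 285 (iCAFs) and 171 FPKM (iCAFs+JNKi). NDUFA1, on chromosome X from 119005795 to 119010625, was at 84.7 (MRC5), 84.2 (iCAFs) and 50.9 FPKM (iCAFs+JNKi). For COX7C and NDUFA1 the untreated libraries lay close together and the treated one apart. NDUFB2 shares exon bases with coding genes on both strands, and the strand setting of the counting is not given in the sources used here. The catalytic subunit ATP5B was at 381 (MRC5), 345 (iCAFs) and 261 FPKM (iCAFs+JNKi), and ATP5A1 at 242, 204 and 160 FPKM. The 3 members higher in iCAFs+JNKi than in iCAFs were UQCRC1 at 115 and 127 FPKM, SDHD at 35.1 and 37.7 FPKM and NDUFA4 at 57.3 and 57.9 FPKM in iCAFs and iCAFs+JNKi.

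Transcript length and base composition moved with these differences. The canonical transcript of the members had a median of 783.5 bases, against 3065 bases for all genes of the JUN overexpression table. In JUN AA against control, the 45 members under 1000 bases had a median difference of 0.53, with 42 higher, and the 33 longer ones 0.20, with 27 higher. In iCAFs+JNKi against iCAFs, the shorter members had -0.38, with 0 of 44 higher, and the longer ones -0.29, with 3 of 33 higher. In JUN WT against control the order was the other way, with -0.04 for the shorter members and 0.31 for the longer ones. Across the 78 members with a length, the difference and the length had a Spearman's rho of -0.29 in JUN AA and 0.18 in JUN WT. With the GC content it was -0.35 and -0.22. In iCAFs+JNKi against iCAFs, over 77 members, rho was 0.33 with length and -0.11 with GC content. Over all genes, rho with length was -0.19 in JUN AA, -0.02 in JUN WT and 0.19 in iCAFs+JNKi. With GC content it was -0.31, -0.39 and -0.05 over all genes. These are descriptions across genes that share the same 2 libraries, and genes are not independent replicates. When the trends of all genes with length and GC content were removed, the members' median in JUN AA was 0.32. Of 78 members 63 were then higher, against 49.9% of all genes. In iCAFs+JNKi the members' median became -0.12, with 21 of 77 higher, against 50% of all genes. The part of length in the result was otherwise not tested.

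**Figure D4:**
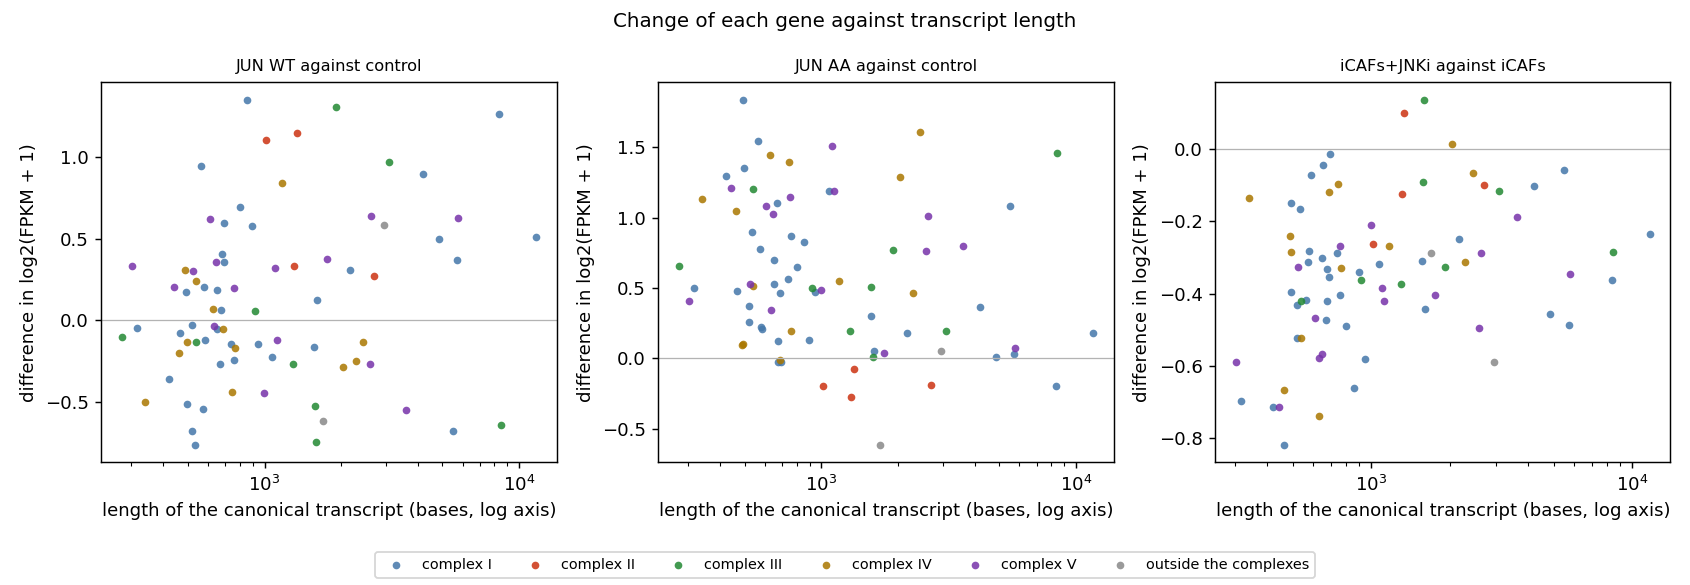
Each point is 1 member, with the length of its canonical transcript in bases on a log axis and its difference in log2(FPKM + 1) on the other axis, for either JUN library against control and for iCAFs+JNKi against iCAFs, coloured by complex. In JUN AA the short genes lie higher, with a median of 0.53 under 1000 bases and 0.20 above. In iCAFs+JNKi the shorter genes lie lower, at -0.38 against -0.29.

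Promoters of the members were searched for motifs of factors known from nuclear genes of mitochondria. RefSeq windows of GRCh38.p14 from 250 bases before to 50 bases after the transcription start were matched for 67 of the 85 members, and both strands were read. NRF1, the factor named for respiratory genes, was searched as GCATGCGC, which was found in 13 of 67 windows, or 19.4%, against 3.27% of all 27305 promoters and 4.26% of the 15843 promoters of coding genes. The ETS motif CCGGAAG, to which GABP binds, was in 19 windows, or 28.4%, against 10.7% of all and 14.2% of coding promoters, and the YY1 motif AAGATGGC was in 11, or 16.4%, against 3.03% and 3.91%. The AP-1 motif TGANTCA, to which JUN and its partners bind, and the CRE motif TGACGTCA were added later. AP-1 was found in 4 windows, those of NDUFB3, NDUFS6, COX7C and COX7B2, or 5.97%, against 7.76% of all and 5.75% of coding promoters. CRE was found in 5, those of NDUFA10, NDUFB2, SDHB, ATP5G1 and ATP5I, or 7.46%, against 1.98% and 2.59%. A match gives letters in a window, not a site in use.

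The windows of the 2 complex II genes that were more than 2-fold higher in JUN WT both held NRF1 and ETS motifs. The third complex II window of the 3 matched held neither. NDUFV2, UQCRC2 and NDUFA9, also past 2-fold in JUN WT, had no NRF1 or ETS match or no window. Both motifs were also in the windows of COX5B, COX6A1, ATP5I and ATP5J. These genes differed by -0.05, 0.24, 0.33 and 0.30 in JUN WT against control. A link of the motifs to the JUN WT values was not tested. A stretch of SDHB and of SDHD is shown with that of ATP5J, a stalk subunit of the ATP synthase whose window held NRF1, YY1 and ETS motifs. Sequences run 5′ to 3′ on the strand of the gene, positions are in GRCh38.p14, and capitals mark the motifs. SDHB is on the minus strand (chr1:17054139-17054247), SDHD on the plus strand (chr11:112086748-112086817) and ATP5J on the minus strand (chr21:25735063-25735189).
SDHB: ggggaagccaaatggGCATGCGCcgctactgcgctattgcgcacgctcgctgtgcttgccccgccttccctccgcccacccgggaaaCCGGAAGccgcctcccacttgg
SDHD: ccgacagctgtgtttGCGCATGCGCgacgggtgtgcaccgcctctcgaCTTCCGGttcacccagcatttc
ATP5J: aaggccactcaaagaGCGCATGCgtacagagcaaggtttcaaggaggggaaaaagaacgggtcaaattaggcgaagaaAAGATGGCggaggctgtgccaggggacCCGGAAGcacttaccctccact

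The SDHB window also held a CRE motif across the start and a YY1 motif after it, both outside the stretch shown. In SDHD the capitals hold the NRF1 motif on both strands, overlapping, and the ETS motif on the other strand. The motifs lay 200 and 128 bases before the start in SDHB, 110 and 77 in SDHD, and 120, 57 and 30 in ATP5J, counted to the first base of each motif. ATP5J was at 61.6 (control), 76.2 (JUN WT) and 89.4 FPKM (JUN AA), an order unlike that of SDHB and SDHD.

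Stretches with AP-1 motifs are shown because JUN was the factor varied, for the 3 genes that passed the filter, which COX7B2 did not. They lie on the plus strand, NDUFB3 at chr2:201071902-201071938, COX7C at chr5:86617736-86617772 and NDUFS6 at chr5:1801247-1801383, the last with the NRF1 motif in capitals as well.
NDUFB3: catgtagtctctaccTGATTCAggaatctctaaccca
COX7C: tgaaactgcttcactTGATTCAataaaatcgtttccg
NDUFS6: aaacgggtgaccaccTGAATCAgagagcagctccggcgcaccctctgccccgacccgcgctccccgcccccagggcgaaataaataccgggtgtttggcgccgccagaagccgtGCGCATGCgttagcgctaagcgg

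The 3 genes carry the same 7 letters, in NDUFS6 on the other strand. NDUFB3 and COX7C were higher in JUN AA by more than 2-fold and near the control level in JUN WT. NDUFS6, an accessory subunit of complex I, was at 160 (control), 157 (JUN WT) and 191 FPKM (JUN AA). It was thus less than 1.5-fold higher in JUN AA. The other members past 2-fold in JUN AA had no AP-1 match or no window. A link of the AP-1 motif to these values was not tested.

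Other genes of the same organelle were compared by lists of textbook members. Subunits and carriers under other symbols had a median change of 0.74 in JUN AA and 0.27 in JUN WT over 7 genes, each against control. In iCAFs+JNKi against iCAFs it was -0.61 over the 6 that passed the filter. After rescaling these medians were 0.43, 0.26 and -0.48. Among them USMG5, a small subunit of the ATP synthase, was at 293 (control), 353 (JUN WT) and 1096 FPKM (JUN AA). Cytochrome c1, CYC1, was at 304 (control), 198 (JUN WT) and 510 FPKM (JUN AA), and at 95.8 (MRC5), 99.2 (iCAFs) and 51.5 FPKM (iCAFs+JNKi). Cytochrome c, CYCS, was at 10.4, 20.8 and 28.4 FPKM in the first table.

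Assembly factors, which build the complexes but are not part of them, had medians of 0.24 in JUN AA, which turned to -0.03 after rescaling, and 0.32 in JUN WT over 44 genes, and -0.25 in iCAFs+JNKi over 45. Their difference between JUN WT and JUN AA had a median of 0.06, beside -0.44 for the members. TIMMDC1, an assembly factor of complex I, was at 16.7 (control), 43.5 (JUN WT) and 23.0 FPKM (JUN AA), and COX16, of complex IV, at 21.6, 27.0 and 85.6 FPKM. Of the regulators of mitochondrial biogenesis, PPARGC1A and PPARGC1B were below 1 FPKM in all 6 libraries. The gene NRF1 was at 1.64 (control), 1.99 (JUN WT) and 1.98 FPKM (JUN AA). TFAM, which packs mitochondrial DNA and activates its transcription, was at 1.18, 1.97 and 1.11 FPKM in that order. The 10 regulators that passed the filter had a median of 0.14 in both JUN WT and JUN AA, and the latter turned to -0.16 after rescaling.

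Ribosomal protein genes were set beside the members. The 83 genes of the cytosolic ribosome had a median of 0.86 in JUN AA against control, with 79 higher, against 48.6% of all genes. Their median was -0.04 in JUN WT and -0.31 in iCAFs+JNKi against iCAFs. In the latter 81 were lower and 2 higher, against 37.4% of all genes higher. The 77 genes of the mitochondrial ribosome had 0.36, 0.27 and -0.35. After rescaling, the cytosolic ribosome had 0.55 in JUN AA and -0.18 in iCAFs+JNKi, and the mitochondrial ribosome 0.05 and -0.24. In JUN WT against JUN AA the mitochondrial ribosome had -0.15 as deposited and 0.15 after rescaling, where the members had -0.44 and -0.15. Medians above 0 in JUN AA and below 0 in iCAFs+JNKi were thus found in both ribosome lists too, and what the groups share was not tested.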

How the data were processed

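The authors mapped reads to hg19 with HISAT2 2.1.0 at default parameters and deposited FPKM per gene from StringTie 2.1.1, in 2 tables of 3 libraries. Annotation, strand setting and read number are not given in the sources used here, so the depth and the precision of single values are unknown. Members and lists were chosen with earlier results of these data known. Differences of log2(FPKM + 1), with a pseudocount of 1, came from scripts in Python 3.11.15 (pandas 2.3.3, numpy 2.4.6, scipy 1.17.1), within a table, over genes averaging 1 FPKM or more, and 1.5-fold was the call. FPKM are not counts and each condition has 1 library, so no count model and no test was used. The computation was tested on simulated data.

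Named were the 3 largest differences in each direction among members averaging 5 FPKM or more, the most abundant member of each complex, core subunits (1 of them is neither reported nor drawn here, and counts and medians include it), isoform groups, members past 2-fold and JUN. Genes outside this rule were named, and the core subunits set against the remaining members, after their values were seen. Positions and lengths are from GENCODE on GRCh37, in which 32 members share exon bases with a coding gene and 48 have pseudogenes of their name. Of the symbols, 2 stood on 4 rows in each table and neither is a member. Alternatives were: rescaling to a sum of 1000000, 0.1 as pseudocount, centring on the median gene, no filter, a filter of 5 FPKM, summed repeated rows, removal of trends with length and GC content in 20 bins, only common subunits, means in place of medians, and NDUFA4 in complex I. Figures were drawn with matplotlib 3.10.9.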

Additional observations from a re-analysis of the deposited data

How the results depend on the processing

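With no replicates, a shift of a median beyond 0.1 (log2) or of a count beyond 1.5 times was the limit for a move. Under the alternatives 200 medians stayed within it, 52 moved and 3 turned from beyond 0.1 to the other side of 0, while 37 counts stayed within it and 3 moved. With 4 medians that lay within 0.1 of 0, 7 changed sign in all. Rescaling to equal sums put the members' median at 0.19 for JUN AA against control and at -0.15 for JUN WT against JUN AA. In iCAFs+JNKi against iCAFs it was -0.20 after rescaling, with 15 of 78 members higher, against 51.8% of all genes. Centred on the median gene, JUN WT had a median of -0.088 against control and of -0.63 against JUN AA. In iCAFs+JNKi 11 of 78 members were then higher than in iCAFs, against 50% of all genes. With length and GC trends removed, the medians were 0.32 for JUN AA against control and -0.32 for JUN WT against JUN AA. The median in iCAFs+JNKi was then -0.12, with 21 of 77 members higher, against 50% of all genes. In iCAFs+JNKi against iCAFs, complex II changed sign, to 0.014 after rescaling and 0.068 with trends removed, and complex IV came to 0.0024 with trends removed. The causes were not tested. The other alternatives, a pseudocount of 0.1, other filters, summed rows, common subunits only, means and NDUFA4 in complex I, moved none of the medians or counts over all members beyond these limits, but they moved 7 medians of single complexes. Of these, complex IV without a filter went from -0.72 to -0.25 in JUN WT against JUN AA, from 0.55 to 0.33 in JUN AA against control and from -0.27 to -0.13 in iCAFs+JNKi, and complex III at a filter of 5 FPKM from -0.76 to -0.61 in JUN WT against JUN AA. No paired analysis was possible because each condition has 1 library. With 1 library per condition and an unknown number of reads, differences between libraries, infections or cultures cannot be told apart from those between conditions.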

Other observations

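Glycolysis, the other main source of ATP, was described by 16 enzymes, all of which passed the filter in both tables. In iCAFs+JNKi against iCAFs 13 of 16 were lower and 3 higher, against 37.4% of all genes higher. After rescaling 3 were higher, against 51.8%. The median was -0.39, beside -0.33 for the respiratory chain genes, and -0.27 after rescaling. GAPDH was at 2855 (MRC5), 3506 (iCAFs) and 2050 FPKM (iCAFs+JNKi), and PKM, which makes pyruvate, at 1157, 1058 and 706 FPKM. HK2, a hexokinase at the entry of the pathway, was at 11.7 (MRC5), 10.7 (iCAFs) and 17.9 FPKM (iCAFs+JNKi), opposite to HK1 at 81.8, 71.2 and 39.6 FPKM. LDHA, which turns pyruvate into lactate, was at 221 (MRC5), 372 (iCAFs) and 242 FPKM (iCAFs+JNKi), the highest difference of the 16 in iCAFs against MRC5.

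In JUN AA against control the glycolysis enzymes had a median of -0.04, or -0.35 after rescaling. There 8 of 16 were lower and 8 higher, against 48.6% of all genes higher. In JUN WT against control the median was 0.11, with 7 of 16 lower and 9 higher, against 60.9% of all genes higher. PFKL, a phosphofructokinase, was at 124 (control), 63.1 (JUN WT) and 115 FPKM (JUN AA). LDHA was at 124 (control), 220 (JUN WT) and 204 FPKM (JUN AA).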
